A study of Caenorhabditis elegans with 5 samples.

Results

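The genes described here encode enzymes of sphingolipid metabolism in *C. elegans*. They were taken by symbol, from a list drawn up with earlier results of these data known, and all 10 were found among the 25393 genes of the expression table. They are the serine palmitoyltransferase subunit genes *sptl-1*, *sptl-2* and *sptl-3*, the ceramide synthase genes *hyl-1*, *hyl-2* and *lagr-1*, the ceramide glucosyltransferase genes *cgt-1* and *cgt-3*, the sphingomyelin synthase gene *sms-1* and the acid sphingomyelinase gene *asm-1*. The libraries came from whole wild-type N2 animals, labelled as L4 larvae, that were fed *E. coli* HT115 on agar. Controls received 400 µM citrate (2 libraries) and treated animals 400 µM tamoxifen (3 libraries), each with a labelled time of 48 h. Every library was made from a pool of staged animals. Tamoxifen, an estrogen receptor modulator, delays development at this dose, and the study collected treated animals later than controls to match their stage. Drug and time of collection therefore cannot be told apart in any comparison below.

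Sphingolipids are membrane lipids built on a sphingoid base, which serine palmitoyltransferase makes from serine and an activated FA. Ceramide synthases attach a second FA to give ceramide, and ceramide then receives glucose to become glucosylceramide or a phosphocholine headgroup to become sphingomyelin. Hydrolases such as sphingomyelinases, glucocerebrosidases and ceramidases run the route backwards in lysosomes. In *C. elegans* the sphingoid base is iso-branched and derives from monomethyl branched-chain FAs, and glucosylceramide made from it supports larval growth. The study used expression profiling to ask whether genes of FA metabolism or oxidative stress respond to tamoxifen. Among genes of FA synthesis and breakdown it reported no change other than a rise of *fat-5* and a fall of *ech-6*. In separate toxicity assays it found that *elo-5* RNAi enhanced toxicity. It also found *nprl-3* mutants, in which loss of *elo-5* is rescued, as sensitive as wild type. From the latter it concluded that loss of iso-branched glucosylceramide is not how the drug acts. The libraries show mRNA, not lipid or enzyme activity.

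Levels were measured by Cel-seq2, which reads a tag from the 3′ end of an mRNA, so that a level, given as counts per 1000000 tags (CPM), does not grow with the length of a gene. Totals ran from 1782371 tags in tamoxifen replicate 3 to 38276144 in tamoxifen replicate 2, a 21.5-fold range, with 18882647 and 9277598 in citrate replicates 1 and 2 and 3512899 in tamoxifen replicate 1. A floor of 3 tags stands for 0.159 and 0.323 CPM in citrate replicates 1 and 2 and for 0.854, 0.0784 and 1.68 CPM in tamoxifen replicates 1, 2 and 3. Floors and intervals on tags cover counting error only. Changes were tested by limma on log2(CPM + 1) for the 8325 genes that reached 5 CPM in 2 libraries or more. A gene was called at a Benjamini-Hochberg adjusted p under 0.01 over all these genes together with a change of more than 2-fold. The log2 fold change (log2FC) on this scale is too small for genes of low level because of the 1 CPM added. The labels do not say whether replicates were separate cultures, although the study calls them biological, so p-values measure the spread between these libraries. In RNA from whole animals, more cells of a type and more RNA per cell cannot be told apart.

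The summed level of the 10 genes was higher in tamoxifen. It was 173 and 187 CPM in citrate replicates 1 and 2, against 294, 295 and 318 CPM in tamoxifen replicates 1, 2 and 3. The ratio of the means was 1.68, with 180.3 ± 9.97 CPM (SD) over 2 citrate libraries and 302.4 ± 13.1 CPM (SD) over 3 tamoxifen libraries. Gene by gene, every treated library exceeded both controls for 6 of the 10 genes, namely *sptl-1*, *sptl-2*, *sptl-3*, *hyl-1*, *cgt-3* and *sms-1*. This also held for 39.4% of all genes tested, and the opposite, every treated library below both controls, for 20.8%. Of the 10 genes, 7 were among those tested, and of these 6 were above and 0 below in this sense. For *hyl-2*, *lagr-1*, *cgt-1* and *asm-1* the groups overlapped.

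All 7 genes that reached the level tested had a fitted change above 0 (*hyl-2* turned below 0 after either other scaling), as did 60.1% of all genes. Of the 7 genes 1, *cgt-3*, exceeded 2-fold by the fitted change at any p, beside 17.1%. With 0.1 CPM added instead of 1, *sptl-1*, *sptl-3* and *sms-1* also passed 2-fold, with log2FCs of 1.01, 1.03 and 1.03. Their ratios of the means were 2.06, 2.03 and 2.04. The share of all genes was not computed on either measure. None of the 7 genes passed the threshold. Limma called 0 of the 7 in either direction, where 4.66% of all genes (388) were called higher and 2.76% (230) lower. After median-of-ratios scaling these counts over all genes were 151 and 405. At an unadjusted p under 0.05 there were 5 genes of the 7, beside 44.5% of all genes. At a looser limit, an adjusted p under 0.05 by limma with no limit on the fold, 4 genes were higher (*cgt-3*, *sms-1*, *sptl-1* and *sptl-3*), and 0 lower, beside 20.4% and 9.67% of all genes. With the 2-fold limit kept, 1 of them remained at an adjusted p under 0.05, *cgt-3*, beside 16.0% of all genes higher and 8.14% lower. On recovered tags edgeR called 0 of these genes, with 4 at an unadjusted p under 0.05, and DESeq2 called 1, *cgt-3*, with 4 at an unadjusted p under 0.05. Over all genes edgeR called 1.78% higher and 5.12% lower, and DESeq2 5.09% and 6.24%. The median log2FC was 0.97 over the 7 genes and 0.24 over all genes tested. The filter admitted *sptl-2* through its tamoxifen values alone, and over the other 6 genes the median was also 0.97. Median-of-ratios scaling lowered the median of all genes by 0.25 on the log2 scale, so changes are also given relative to the median of all genes.

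**Figure D1:**
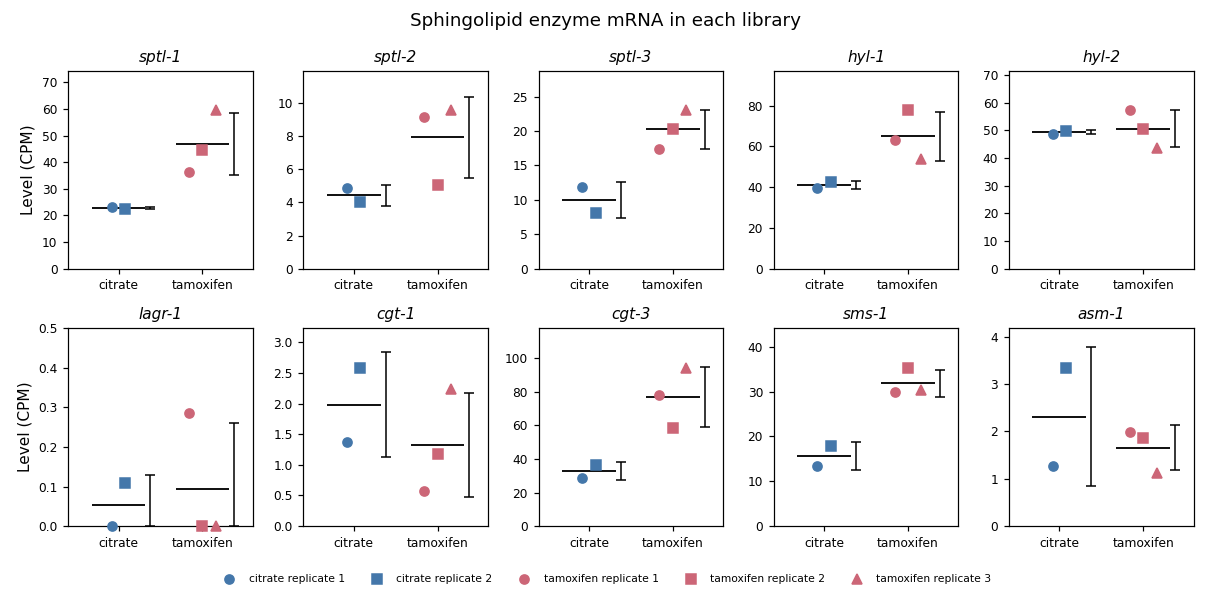
Level in CPM of each of the 10 genes in every library, with a separate linear axis from 0 for each gene. Symbols are libraries, horizontal lines group means and bars 1 SD (cut at 0 for *lagr-1*). The tamoxifen points lie above both citrate points for 6 genes, while *hyl-2* stays near 50 CPM in both groups and *lagr-1* is at 0 or 1 tag.

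Serine palmitoyltransferase is the first and committed enzyme of the route, and works as a heteromer of an SPTLC1-like subunit, SPTL-1, with a catalytic subunit such as SPTL-2 or SPTL-3. *sptl-1* (WBGene00016020; II, 51652 to 57570, plus strand; positions here are those of Ensembl release 115 on WBcel235) had citrate levels of 23.1 and 22.4 CPM, and levels of 36.4, 44.7 and 59.5 CPM in tamoxifen replicates 1, 2 and 3. The counting intervals of the controls overlapped, and every tamoxifen library was above them. Its log2FC was 0.98 (standard error, SE, 0.31, adjusted p = 0.0305 by limma), or 0.74 relative to the median of all genes. The gene overlaps *tre-5* on the other strand, away from its 3′ end. *sptl-3* (WBGene00011932; V, 13893325 to 13896415, plus strand) had 11.9 and 8.08 CPM in citrate and 17.4, 20.3 and 23.0 CPM in tamoxifen. Its log2FC was 0.97 (SE 0.33, adjusted p = 0.0401 by limma). In contrast to the direction of that change, *sptl-3* was lower in citrate replicate 2 than in replicate 1, by 0.50 on the log2 scale.

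*sptl-2* (WBGene00018398; V, 8017207 to 8021715, plus strand) had the lowest level of the 3 subunit genes in every library. It had 4.87 and 3.99 CPM in citrate and 9.11, 5.07 and 9.54 CPM in tamoxifen, from as few as 17 tags in tamoxifen replicate 3. Tamoxifen replicate 2, the deepest library, stood only just above citrate replicate 1, with exact Poisson intervals of 4.38 to 5.83 and 3.93 to 5.97 CPM. The log2FC of *sptl-2* was 0.68 (SE 0.39, adjusted p = 0.196 by limma), and its 95% interval, -0.17 to 1.52, includes 0. Within a library, the level of *sptl-1* was 4.74 and 5.62 times that of *sptl-2* in citrate and 4, 8.82 and 6.24 times in tamoxifen. For *sptl-3* these ratios to *sptl-2* were 2.43 and 2.03 in citrate and 1.91, 4.01 and 2.41 in tamoxifen. Both sets of ratios overlapped between the groups, with exact permutation p of 0.7 for *sptl-1* and 0.9 for *sptl-3*. With 2 against 3 libraries no exact permutation p can fall below 0.1, so these tests could not have passed 0.05 for a shift of any size.

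Ceramide synthases join the sphingoid base to a FA of a given length. In *C. elegans*, HYL-1 is known for ceramides with longer FAs and HYL-2 for shorter ones. *hyl-1* (WBGene00002043; IV, 8539123 to 8544412, plus strand) had 39.7 and 42.4 CPM in citrate and 63.2, 77.7 and 53.9 CPM in tamoxifen. All tamoxifen libraries were above both controls, but counting error alone put the lowest, replicate 3, between 43.6 and 65.8 CPM. That interval overlapped the interval of citrate replicate 2, whose upper limit was 46.8 CPM. The log2FC of *hyl-1* was 0.63 (SE 0.29, adjusted p = 0.107 by limma).

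*hyl-2* (WBGene00002044; X, 4696754 to 4699461, minus strand) had overlapping groups. It had 48.8 and 49.9 CPM in citrate and 57.2, 50.6 and 43.8 CPM in tamoxifen, so that the citrate values lay within the tamoxifen range. Its log2FC was 0.02 (SE 0.29, adjusted p = 0.953 by limma), with a 95% interval from -0.59 to 0.64, and it was -0.24 with median-of-ratios scaling. That interval leaves room for changes of up to about 0.6 on the log2 scale in either direction.

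The ratio of *hyl-1* to *hyl-2* does not depend on the scaling of a library. It was 0.812 and 0.849 in citrate and 1.10, 1.53 and 1.23 in tamoxifen, which places *hyl-2* above *hyl-1* in both controls and *hyl-1* above *hyl-2* in all 3 treated libraries. On the log2 scale the ratio was higher in tamoxifen by 0.62, with a mean of -0.27 ± 0.045 (SD) over the controls and 0.35 ± 0.24 (SD) over the treated libraries. The two-sided exact permutation test gave p = 0.1, the smallest that 2 against 3 libraries allow, or 0.167 after Benjamini-Hochberg adjustment over 5 ratios. With all libraries thinned to the smallest, the difference was 0.55 and the exact permutation p was 0.4. The remaining ceramide synthase gene, *lagr-1* (WBGene00006505; I, 13724577 to 13732046, minus strand), was not measurable. It had 1 tag in citrate replicate 2, 1 in tamoxifen replicate 1 and 0 in the other libraries, all under the floor, so no fold is given. In the deepest library its exact 95% limit was 0.0964 CPM.

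Ceramide glucosyltransferases make glucosylceramide, and in *C. elegans* the family comprises *cgt-1*, *cgt-2* and *cgt-3*. *cgt-3* (WBGene00019127; II, 5911324 to 5916910, plus strand) had the largest fitted change of the 7 genes tested. It had 28.9 and 36.6 CPM in citrate and 78.3, 58.5 and 94.3 CPM in tamoxifen. The lowest tamoxifen library had 2241 tags behind it and lay well above the higher control, with exact intervals of 56.1 to 61.0 and 32.9 to 40.8 CPM. The ratio of the means was 2.35, and the log2FC 1.19 (SE 0.31, adjusted p = 0.0141 by limma), or 0.95 relative to the median of all genes. *cgt-3* therefore exceeded 2-fold without reaching an adjusted p of 0.01. Across the alternatives its log2FC ran from 0.93 to 1.37 and its adjusted p from 0.00797 to 0.139. It was called with DESeq2 on recovered tags (adjusted p = 0.00924). Without citrate replicate 1, the limma adjusted p of *cgt-3* was 0.139, and the remaining control is then assumed to vary like the other group.

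*cgt-1* (WBGene00011517; V, 15886719 to 15888851, minus strand) was rare and did not reach the level tested. It had 1.38 and 2.59 CPM in citrate and 0.569, 1.18 and 2.24 CPM in tamoxifen, from 26, 24, 2, 45 and 4 tags. The groups overlapped. Within a library, *cgt-3* stood at 21 and 14.2 times the level of *cgt-1* in citrate and at 138, 49.8 and 42 times in tamoxifen. These groups did not overlap, although the value of 138 rests on 2 tags of *cgt-1*. The log2 ratio was higher by 1.94 in tamoxifen (exact permutation p = 0.1, 0.167 adjusted over 5 ratios), and by 1.41 without tamoxifen replicate 1.

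Sphingomyelin synthase moves a phosphocholine headgroup onto ceramide, and sphingomyelinase removes it again. *sms-1* (WBGene00004892; IV, 11482662 to 11498174, minus strand) had 13.3 and 17.9 CPM in citrate and 29.9, 35.3 and 30.3 CPM in tamoxifen. The 3 treated libraries were close together and above both controls. Its log2FC was 0.99 (SE 0.31, adjusted p = 0.0281 by limma), or 0.75 relative to the median of all genes. The log2FC of *sms-1* stayed between 0.65 and 1.19 over the alternatives. In those that kept both controls, its limma adjusted p ran from 0.0119 with the replicate block to 0.161 after thinning. *asm-1* (WBGene00000211; II, 6910072 to 6912659, plus strand) had 1.27 and 3.34 CPM in citrate and 1.99, 1.85 and 1.12 CPM in tamoxifen. The citrate libraries spanned the whole tamoxifen range apart from replicate 3, which had 2 tags, and the gene was below the level tested. The 3′ end of *asm-1* lies over *cyn-10* on the other strand, and since the use of strand in counting is not given, tags of the pair cannot be told apart. The ratio of *sms-1* to *asm-1* was 10.5 and 5.35 in citrate and 15, 19.03 and 27 in tamoxifen, without overlap. The log2 ratio was higher by 1.40 in tamoxifen (exact permutation p = 0.1, 0.167 adjusted over 5 ratios). Without citrate replicate 2 the difference was 0.91, and thinned to the smallest library it was 0.94 with an exact permutation p of 0.2.

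**Figure D2:**
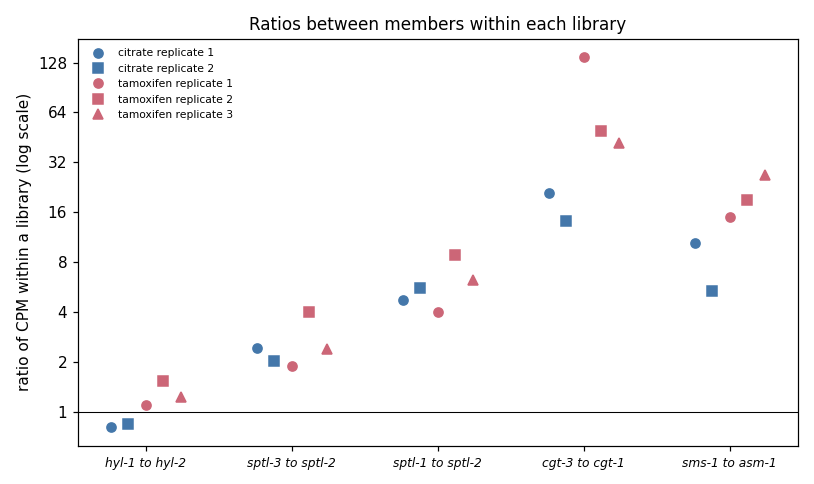
Ratio of the CPM of 2 genes within each library, on a log2-spaced axis, for 5 pairs. The ratio of *hyl-1* to *hyl-2* is below 1 in both citrate libraries and above 1 in the 3 tamoxifen libraries, and the groups also separate for *cgt-3* to *cgt-1* and *sms-1* to *asm-1* but overlap for both *sptl* ratios. In each pair that separates, the first gene alone was above both controls in every treated library. *cgt-1* and *asm-1* had 2 to 7 tags in tamoxifen replicates 1 and 3. The share of all gene pairs that separate was not computed.

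The order of the genes by level differed between the groups at its top. In both citrate libraries *hyl-2* was first, followed by *hyl-1*, *cgt-3* and *sptl-1*. *cgt-3* was first in tamoxifen replicates 1 and 3, and *hyl-1* was first in tamoxifen replicate 2. Below these, *sms-1*, *sptl-3* and *sptl-2* came at ranks 5, 6 and 7 in every library, followed by *cgt-1* and *asm-1* in changing order and *lagr-1* last. In citrate the 2 libraries kept neighbours apart from *hyl-2* down to *sptl-2*, for example 39.7 to 42.4 CPM for *hyl-1* and 28.9 to 36.6 CPM for *cgt-3*, while *cgt-1* and *asm-1* overlapped. In tamoxifen the first 4 genes overlapped with their neighbours. Their means were 77.0 ± 17.9 CPM for *cgt-3*, 64.9 ± 12.01 for *hyl-1*, 50.5 ± 6.73 for *hyl-2* and 46.9 ± 11.7 for *sptl-1* (SD, n = 3).

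As a share of all tags of the 10 genes, *hyl-2* was below both controls in each treated library. It held 28.2% of these tags in citrate replicate 1 (95% Wilson interval 26.7 to 29.8) and 26.6% in citrate replicate 2 (24.6 to 28.8). In tamoxifen replicates 1, 2 and 3 it held 19.4% (17.1 to 22.0), 17.1% (16.5 to 17.9) and 13.8% (11.2 to 16.9). None of the tamoxifen intervals met a citrate interval. The share of *cgt-3* was 16.7% and 19.6% in citrate and 26.6%, 19.8% and 29.7% in tamoxifen, and that of *hyl-1* overlapped between the groups, at 22.9% and 22.6% against 21.5%, 26.3% and 17.0%. A share moves with the other members, so the lower share of *hyl-2* goes with a level that stayed near 50 CPM.

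Markers of developmental stage differed between the groups and between the controls. The 16 oocyte markers, among them *rme-2*, *oma-1* and *cbd-1*, all had higher values in tamoxifen (median log2FC 1.64), and 13 were called. Their summed level was 3802 and 6513 CPM in citrate and 11987 to 12590 CPM in tamoxifen, and none was at 0 in any library. Between the controls, too, all 16 were higher in replicate 2, with a median log2 difference of 1.05. The 6 yolk genes *vit-1* to *vit-6* were higher in tamoxifen by a median of 1.39 with 4 called, and in citrate replicate 2 by 0.88, with summed levels of 1343 and 2128 CPM in citrate and 3315 to 4866 CPM in tamoxifen. The 7 germ line markers were higher by 1.24 with 1 called (summed levels of 939 and 1855 CPM in citrate and 2661 to 2941 in tamoxifen). The 16 sperm markers went the other way, with a median of -1.15 over the 15 tested, 4 called lower and summed levels of 1744 and 2064 CPM in citrate against 727 to 1252 CPM in tamoxifen. Of 3 adult cuticle markers, *col-19* had 671 to 999 CPM over the libraries, all labelled L4, while *bli-1* and *bli-2* had 0.212 to 3.93 and 0.216 to 2.56 CPM, below the level tested. Body wall muscle markers were lower in tamoxifen, 5 of 5 with a median log2FC of -0.50 and 0 called, and summed to 1974 and 1992 CPM in citrate against 1081 to 1523 CPM. Of 6 intestine markers (median -0.38) 1 was called, *act-5*, lower by a log2FC of -1.62, and the 6 summed to 5854 and 3676 CPM in citrate against 2900 to 3834 CPM. The 4 neuron markers tested had a median of 0.10 with 0 called. The part of stage or tissue content in the values of the sphingolipid genes was not tested.

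Beside the oocyte, yolk and germ line markers, the sphingolipid genes differed little and in mixed direction between the controls. The median log2 difference of the germ line markers was 0.85. Other markers differed less as well, with medians of -0.00064 for body wall muscle, 0.19 for sperm, 0.30 for neuron and -0.53 for intestine. From citrate replicate 1 to replicate 2 the log2 difference was -0.04 for *sptl-1*, 0.09 for *hyl-1* and 0.03 for *hyl-2*, all within 0.1. *sptl-2* and *sptl-3* were lower in replicate 2, by -0.24 and -0.50, and *cgt-3* and *sms-1* were higher, by 0.33 and 0.40. The median over the 7 genes was 0.03, against 0.13 over all genes tested, and 4 of the 7 were higher in citrate replicate 2, beside 59.7% of all genes. Set against each control alone, the log2 change of *sptl-1* was 0.963 and 1.004, that of *cgt-3* 1.36 and 1.03 and that of *sms-1* 1.19 and 0.79, from citrate replicates 1 and 2. For 6 of the 7 genes the change with tamoxifen was larger in size than the difference between the controls, the exception being *hyl-2*. This was the case for 69.6% of all genes tested and for 14 of the 16 oocyte markers.

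**Figure D3:**
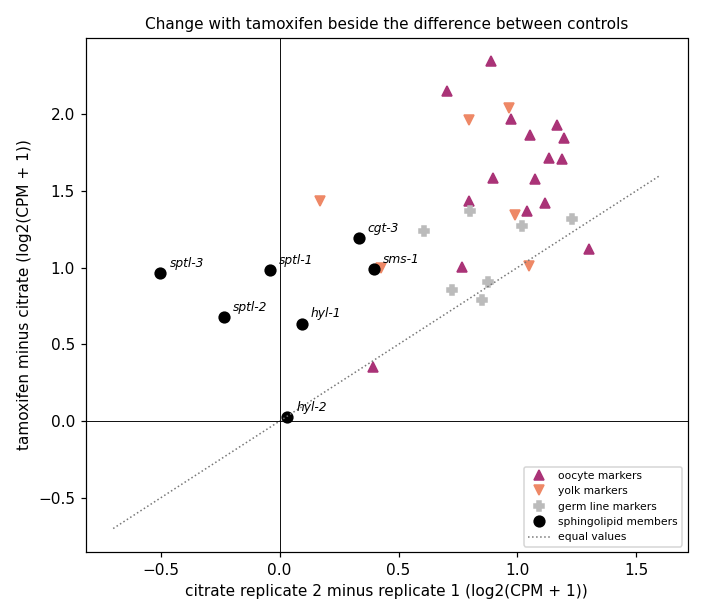
Log2 change with tamoxifen (y axis) against the log2 difference between the 2 citrate libraries (x axis) for the 7 sphingolipid genes tested and for oocyte, yolk and germ line markers. The dotted line marks equal values. The sphingolipid genes lie between -0.50 and 0.40 on the x axis, while the oocyte markers have a median of 1.05 there. The other marker lists, which differed less between the controls, are not plotted.

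The rest of the pathway was read from 29 other genes, of which 28 were matched and 18 reached the level tested, *cert-1* being the one not matched. Limma called 3 of the 18 higher and 0 lower, beside 4.66% and 2.76% of all genes. Of these calls, *gba-4* entered the test through its tamoxifen values alone, and among the other 17 genes 2 were called. At an unadjusted p under 0.05 there were 12 of 18, beside 44.5% of all genes. The median log2FC over the 18 was 0.91. Every treated library was above both controls for 12 of the 18 and below both for 0, beside 39.4% and 20.8% of all genes tested. Of the 10 genes under the level tested, 2 were above in this sense, 3 below and 5 overlapped.

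Of the 3 called genes, *gba-4* and *asah-1* belong to sphingolipid breakdown and *acs-1* to the supply of precursors. *gba-4*, which encodes a glucocerebrosidase that removes glucose from glucosylceramide, had 4.66 and 4.96 CPM in citrate and 19.1, 13.3 and 37.0 CPM in tamoxifen. The treated libraries were all above the controls but spread widely among themselves, and the filter admitted the gene through them alone. Its log2FC was 1.93 (SE 0.40, adjusted p = 0.00657 by limma). *asah-1*, an acid ceramidase gene, had 27.3 and 18.5 CPM in citrate and 59.2, 47.9 and 85.8 CPM in tamoxifen, for a log2FC of 1.43 (SE 0.33, adjusted p = 0.00955 by limma). The second ceramidase gene, *asah-2*, had 12.3 and 8.84 CPM in citrate and 32.2, 19.8 and 34.8 CPM in tamoxifen (log2FC 1.35, limma adjusted p = 0.0138), and its 3′ end lies over *F27E5.3* on the other strand. Both ceramidase genes were lower in citrate replicate 2 than in replicate 1, by -0.54 and -0.44, against the direction of their change with tamoxifen.

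*acs-1*, an acyl-CoA synthetase gene that acts on branched-chain FAs, had 53.5 and 93.9 CPM in citrate and 188, 279 and 186 CPM in tamoxifen (log2FC 1.58, SE 0.31, adjusted p = 0.00547 by limma). It was already 0.80 higher in the second control than in the first. The elongase gene *elo-5*, which makes branched-chain FAs for the sphingoid base, had 15.9 and 17.7 CPM in citrate and 33.3, 28.7 and 49.9 CPM in tamoxifen (log2FC 1.07, limma adjusted p = 0.0262). Both of these genes also overlap a gene on the other strand at their 3′ ends, *hpo-26* for *acs-1* and *F41H10.3* for *elo-5*. Each of the 3 calls was lost under several alternatives. Without citrate replicate 1 the log2FC was 1.90 for *gba-4*, 1.70 for *asah-1* and 1.18 for *acs-1*, with limma adjusted p of 0.0814, 0.0539 and 0.0806. Without a filter on low values the log2FCs were the same as with it, and the limma adjusted p was 0.095, 0.0904 and 0.084. Over the alternatives the adjusted p ranged from 0.000216 to 0.095 for *gba-4*, from 0.00219 to 0.0904 for *asah-1* and from 1.74e-06 to 0.084 for *acs-1*.

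Further genes were at an unadjusted p under 0.05 in limma without being called. The FA 2-hydroxylase gene *fath-1* had 93.8 and 135 CPM in citrate and 222, 251 and 279 CPM in tamoxifen (log2FC 1.14, limma adjusted p = 0.0103). The second sphingomyelin synthase gene, *sms-2*, had 9.53 and 14.7 CPM in citrate and 20.5, 32.1 and 38.2 CPM in tamoxifen (log2FC 1.24, limma adjusted p = 0.0199). The other 5 were *cerk-1*, a ceramide kinase gene, with a log2FC of 1.08, *bre-5* and *bre-3*, whose enzymes extend glycosphingolipids, with 0.95 and 0.87, *spl-1*, which encodes a sphingosine phosphate lyase, with 0.77, and *F33D4.4*, listed with the ceramide desaturases, with 0.69. All of these were higher in tamoxifen in every treated library than in either control. In contrast, *elo-6*, *bre-4* and *gba-1* had values of 0.17, 0.07 and -0.05, and *spp-10*, which encodes a saposin, had -0.39 (limma adjusted p = 0.289). The 3′ ends of *bre-5*, *bre-4* and *gba-1* lie over *T12G3.4*, *adpr-1* and *gba-2* on the other strand, so their tags may be shared.

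**Figure D4:**
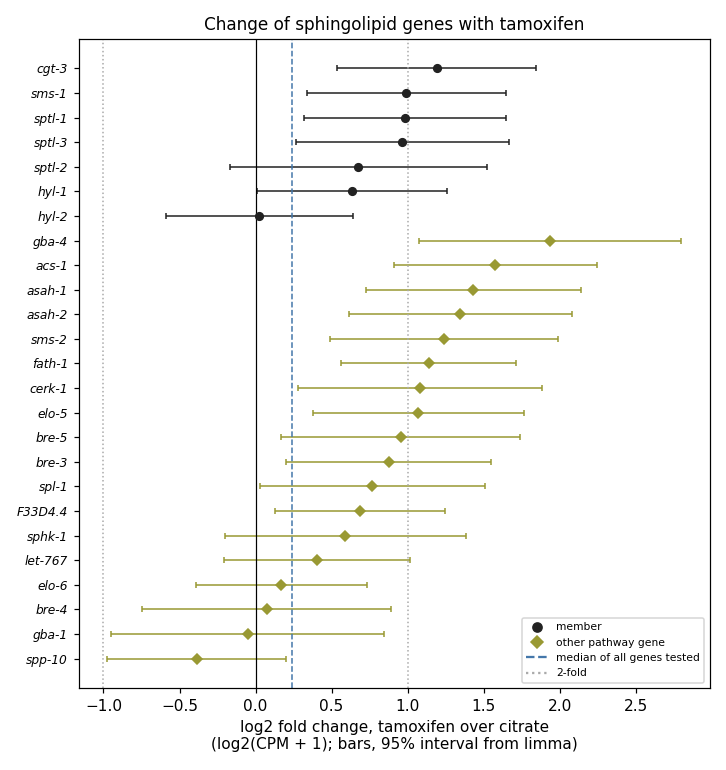
Log2 fold change with tamoxifen for the 7 sphingolipid genes (circles) and 18 other pathway genes (diamonds) that reached the level tested, with 95% intervals from limma (n = 2 and 3 libraries). The dashed line is the median of all genes tested, 0.24, and dotted lines mark 2-fold. *cgt-3* at 1.19 is the highest of the circles and *hyl-2* at 0.02 the lowest.

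The mean profile of the 7 genes, after centring, correlated at r over 0.9 across the 5 libraries with 1565 of the 8325 genes tested. That count includes *sptl-1*, *sptl-3*, *cgt-3* and *sms-1*, which are part of the mean. Outside the pathway the closest were *cyp-35B3*, a cytochrome P450 gene with close paralogs that may share its tags, *F12A10.8* and *sex-1*, with r of 0.999, 0.999 and 0.998. With 5 libraries in 2 groups such correlations mainly restate the difference between the groups, and they carry no test. The filter admitted *cyp-35B3* and *F12A10.8* through their tamoxifen values alone. In citrate replicates 1 and 2 *cyp-35B3* had 0.0530 and 0.216 CPM, under the floor, and *F12A10.8* had 3.44 and 3.56 CPM. Among the 7 genes themselves, *cgt-3* was nearest the shared profile (r = 0.960) and *hyl-2* farthest (r = 0.0015). Each of them is part of the mean it was compared with, so this order is partly built in.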

How the data were processed

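RNA from 2 citrate and 3 tamoxifen samples was profiled by Cel-seq2, and groups were taken from the sample titles. The authors deposited 1 table, named as TPM, whose values sum to 1000000 per library and are whole multiples of 1 step without use of gene length, and these deposited values were treated as CPM. All values (100%) gave whole tags within 0.01. The paper states a DolphinNext pipeline, and the submitters' processing notes name Trimmomatic 0.32 and STAR. The genome build, strand use and collapsing of molecular identifiers are not given in the sources used here. Symbols were matched for 25064 of 25393 genes, and positions came from Ensembl release 115.

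Tests used limma 3.58.1 (R 4.3.3, mean-variance trend) on log2(CPM + 1). All 5 libraries entered, without a covariate, at an adjusted p of 0.01 and 2-fold. The study's DESeq2 test (1.42.0) and edgeR (4.0.16, quasi-likelihood) were run on the recovered tags as alternatives. Of 6 ratios between members planned, that with *lagr-1* could not be computed because of tags at 0, so 5 were tested by exact permutation. Other alternatives were pseudocounts of 0.1 and 5, no filter, a filter of 20 CPM, 2 scalings, no trend, a replicate block, thinning to 1782371 tags and each library left out. Members and lists were chosen with earlier results of these data known. Named genes are the 10 members, the pathway genes called or at an unadjusted p under 0.05, *cgt-2*, *sms-2*, *sms-3*, *asm-2* and *asm-3*, and the 3 genes nearest the shared profile, and other named genes were chosen after their values were seen. Sequences of the genes were not used here.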

Additional observations from a re-analysis of the deposited data

How the results depend on the processing

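The 6 genes *sptl-1*, *sptl-2*, *sptl-3*, *hyl-1*, *cgt-3* and *sms-1* had log2 fold changes above 0 in 95 of 95 alternative fits, between 0.35 and 1.37. These are the genes with every treated library above both controls, so fits of the deposited CPM values could not give another sign. The filter and trend settings repeat the main log2FC. Only rescaled, thinned or tag-based fits could have reversed the sign, and no share over all genes was computed. The count of members called higher, 0, was 1 (*cgt-3*) with DESeq2, with the replicate block and at an adjusted p of 0.05 with 2-fold, 4 at 0.05 with no fold limit, and 0 in each fit that left out a library. Of other pathway genes, 3 were called higher. The count was 0 without a filter or without a trend, 1 after median-of-ratios scaling and with edgeR, 5 with the replicate block, 8 and 9 at the looser limits with and without the 2-fold limit, and from 0 to 3 with 1 library left out, being 0 without citrate replicate 1, tamoxifen replicate 1 or tamoxifen replicate 3. *hyl-2* was at -0.24 after median-of-ratios scaling, -0.25 after quantile normalization, -0.20 with edgeR, -0.135 with DESeq2, and from -0.067 (without tamoxifen replicate 1) to 0.12 with 1 library left out. The difference of the log2 ratio to *sptl-2* ran from -0.051 to 0.49 for *sptl-3* and from -0.048 to 0.52 for *sptl-1*, below 0 without tamoxifen replicate 2. The summed level differed by 122 CPM on the deposited scale, by 79.45 after median-of-ratios scaling, and from 114.6 to 129.2 with 1 library left out. The ratio of *cgt-3* to *cgt-1* could not be computed after thinning. The cause of these shifts was not tested. Replicate numbers pair only by name, with deviations of same-numbered libraries correlating at 0.12 and 0.32 over 2 pairs, and the block is a different fit, not a check on size. Depth limits *cgt-1* and *asm-1*, which had 2 to 7 tags in tamoxifen replicates 1 and 3, whereas *lagr-1* had 0 tags in the 2 deepest libraries too.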

Other observations

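Of the 10 pathway genes that did not reach the level tested, 3 had every treated library below both controls and 2 had every one above, shares that stood at 20.8% and 39.4% among the genes tested. *cgt-2*, the remaining ceramide glucosyltransferase gene, had 4.77 and 4.20 CPM in citrate and 2.28, 3.42 and 2.81 CPM in tamoxifen. *sms-3*, the remaining sphingomyelin synthase gene, had 3.81 and 4.53 CPM in citrate and 2.28, 3.24 and 1.68 CPM in tamoxifen. *bre-2*, a glycosyltransferase gene of the glycosphingolipid route whose 3′ end lies over *zig-8* on the other strand, had 1.32 and 0.970 CPM in citrate and 0.569, 0.627 and 0.561 CPM in tamoxifen. For these 3 genes every treated library was below both controls, but tamoxifen replicates 1 and 3 held only 8 and 5, 8 and 3, and 2 and 1 tags of them. Fitted without a filter, their log2 changes were -0.53, -0.63 and -0.43 (limma adjusted p = 0.507, 0.454 and 0.305). The 2 genes on the other side were *gba-3*, a glucocerebrosidase gene, with 0.212 and 0.108 CPM in citrate and 1.14, 0.392 and 0.561 CPM in tamoxifen, and *spl-2*, a sphingosine phosphate lyase gene, with 2.65 and 0.970 CPM in citrate and 3.42, 3.40 and 3.93 CPM in tamoxifen. Their log2 changes without a filter were 0.53 and 0.77 (limma adjusted p = 0.222 and 0.384), and *gba-3* had 1 to 15 tags in a library. At the same steps, *cgt-3* was more abundant than *cgt-2*, and both *sms-1* and *sms-2* were more abundant than *sms-3*. *cgt-3*, *sms-1* and *sms-2* were above both controls in every treated library.

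*asm-3*, an acid sphingomyelinase gene, had 38 tags in citrate replicate 1 (2.01 CPM) and 1 in citrate replicate 2, against 0, 5 and 0 tags in tamoxifen. The signal above the floor was thus confined to 1 control library and 5 tags of the deepest treated library. *asm-2* had 1.59 and 1.19 CPM in citrate and 0.569, 1.33 and 4.49 CPM in tamoxifen, with overlapping groups.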
